A study of Mus musculus with 34 samples.

Results

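The clustered histone genes are the genes that encode the replication-dependent histones and lie side by side in a few places of the mouse genome. They were taken as the protein-coding genes whose older mouse symbol begins with Hist1h, Hist2h, Hist3h or Hist4h, and 67 genes met this rule. Of these, 65 were among the 48709 genes counted in 16 libraries and the 22018 genes counted in 18 further libraries, while Hist1h2bm and Hist1h2bh were not analysed here. By class there were 6 genes for the linker histone H1, 18 for H2A, 18 for H2B, 12 for H3 and 13 for H4. The Hist1 cluster held 54 of them on chromosome 13 (GRCm38, chr13:21715763-23934851), in blocks of 18, 5, 29 and 2 genes separated by over 100 kb. The Hist2 cluster held 10 genes (chr3:96219865-96270132), the Hist3 cluster 2 (chr11:58948920-58956830) and Hist4h4 stood alone (chr6:136801553-136804415).

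All libraries were made from mouse embryonic stem (ES) cells of the 129/Ola strain. In the first set, Control and Mta123KO cells were each sequenced under the culture labels 2i+LIF (2iL), the medium with 2 kinase inhibitors and the cytokine LIF that keeps ES cells self-renewing, and 48h in N2B27 medium after both were withdrawn, with 4 libraries a group. The Mta123KO cells lack Mta1, Mta2 and Mta3, subunits of the NuRD chromatin remodelling and deacetylase complex, and were made by targeting Mta2 in Mta1-deleted, Mta3 flox/flox cells before Cre deletion. Their Control is a sister line that is heterozygous for Mta1 and Mta3 flox/flox. By their names, the 4 libraries of a group were read as 2 lines with 2 libraries each. In the second set, with 3 libraries a group in 2iL, Mta1_del/del and Mta3_del/del cells were compared with the Mta1_flox/flox and Mta3_flox/flox cells from which Cre had made them, and Mta2_KO cells, a single derived line, with Mta2_WT cells.

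Replication-dependent histone genes supply the protein for new nucleosomes and are transcribed mainly in S phase, when DNA is copied. An H3-H4 tetramer and a pair of H2A-H2B dimers form the nucleosome core, and H1 binds the linker DNA. Their messages usually have no introns and no poly(A) tail. They end instead in a short stem-loop that is bound by the protein Slbp and marks the end for cleavage, and the message is lost when replication stops. NPAT, E2F and octamer-binding factors are known to act on their promoters. A few members, among them Hist1h1t, Hist1h2aa and Hist1h2ba, are known for their use in the testis, and some members can also give polyadenylated messages.

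The stem-loop is shown because it is the feature that sets these messages apart from those counted in a poly(A) selected library. The histone stem-loop consensus of 16 bases, searched on the sense strand of the annotated transcripts (GENCODE vM21), was found in 44 of 67 members (65.7%) and in 5 of 21834 other protein-coding genes (0.0229%), among them Trim17, which shares exon sequence with Hist3h2a. It stood in 4 of 6 H1, 11 of 18 H2A, 10 of 18 H2B, 8 of 12 H3 and 11 of 13 H4 genes, and a member without it may have a model that stops short of it. Of the 44, 26 had the letters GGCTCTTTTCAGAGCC, 7 had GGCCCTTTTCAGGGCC and 6 had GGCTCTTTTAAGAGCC. The first 4 of the stem-loops printed here belong to the linker histone genes Hist1h1c and Hist1h1t and to the 2 Hist3 genes that differed most between the culture labels, and the other 2 to abundant H3 and H4 genes. The 16 bases of the stem-loop are in capitals, with 5 bases on each side.
Hist1h1c: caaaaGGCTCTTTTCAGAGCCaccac
Hist1h1t: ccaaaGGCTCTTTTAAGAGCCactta
Hist3h2a: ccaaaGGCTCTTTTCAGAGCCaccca
Hist3h2ba: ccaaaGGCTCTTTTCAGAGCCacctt
Hist1h3e: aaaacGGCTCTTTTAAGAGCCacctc
Hist1h4d: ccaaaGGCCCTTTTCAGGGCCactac

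Promoters were read from RefSeq sequence of GRCm38 as the 250 bases before the gene start, which matched 62 members. The octamer ATTTGCAT, searched on both strands, was present in 7 of 18 H2A and 6 of 16 H2B promoters and in none of the H1, H3 and H4 promoters, together 13 members (21%) against 1.57% of 26963 other promoters. The CCAAT letters were found in 51 members (82.3%, other promoters 34.4%), including all H1, H2A and H2B promoters, 8 of 10 for H3 and 3 of 12 for H4. TATAAA was found in 29 (46.8%, other promoters 12.9%). The promoters of the 4 members that fell most between the culture labels in Control cells are printed 5′ to 3′ with these letters in capitals on either strand, ATGCAAAT, ATTGG and TTTATA being the reverse complements. Hist3h2a and Hist1h2aa hold an octamer, whereas Hist3h2ba and Hist1h1t hold none in this window, and the Hist1h2aa window also covers part of that of Hist1h2ba, which is transcribed away from it.
Hist3h2ba, chr11:58948661-58948910, plus strand: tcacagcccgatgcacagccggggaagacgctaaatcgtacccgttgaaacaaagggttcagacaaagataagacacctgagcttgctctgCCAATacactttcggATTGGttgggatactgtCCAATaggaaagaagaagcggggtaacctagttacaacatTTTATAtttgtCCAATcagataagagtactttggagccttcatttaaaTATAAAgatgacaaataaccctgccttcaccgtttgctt
Hist3h2a, chr11:58954435-58954684, plus strand: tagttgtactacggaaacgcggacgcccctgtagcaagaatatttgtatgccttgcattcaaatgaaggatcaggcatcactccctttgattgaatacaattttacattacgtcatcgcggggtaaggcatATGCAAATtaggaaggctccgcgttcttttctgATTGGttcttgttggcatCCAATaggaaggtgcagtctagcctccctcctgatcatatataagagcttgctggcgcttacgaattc
Hist1h2aa, chr13:23934187-23934436, plus strand: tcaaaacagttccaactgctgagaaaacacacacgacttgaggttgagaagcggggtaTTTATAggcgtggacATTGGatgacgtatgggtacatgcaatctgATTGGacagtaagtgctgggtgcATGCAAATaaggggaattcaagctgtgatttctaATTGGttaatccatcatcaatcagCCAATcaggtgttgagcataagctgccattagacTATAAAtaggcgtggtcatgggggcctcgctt
Hist1h1t, chr13:23695561-23695810, plus strand: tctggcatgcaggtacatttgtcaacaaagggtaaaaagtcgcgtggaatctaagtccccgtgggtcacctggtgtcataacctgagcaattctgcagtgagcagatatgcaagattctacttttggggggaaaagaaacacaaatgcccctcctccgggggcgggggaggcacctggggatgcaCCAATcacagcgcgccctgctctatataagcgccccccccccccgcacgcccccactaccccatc

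The libraries held 37855790 to 57602285 counts in the Control and Mta123KO set and 13105820 to 40613585 in the single-mutant set. No pair of libraries of a group agreed within counting noise. In the first set the chi-square per degree of freedom of a pair was 6.32 to 19.4 within a line and 17.6 to 113 between lines. The labels do not say that libraries came from separate cultures, so p-values measure the spread between these libraries, which may be technical. In the first set they treat the 4 libraries of 2 lines as 4 samples. Mta2 fell from 122.6 ± 7.8 to 6.71 ± 2.1 counts per 1000000 (CPM; SD, n = 4) in Mta123KO cells labelled 2iL and from 237 ± 8.7 to 10.5 ± 1.3 CPM (n = 3) in Mta2_KO cells, and Mta3 fell from 66.7 ± 5.3 to 11.2 ± 1.6 CPM in Mta3_del/del cells, while Mta1 remained at 24.6 ± 5.7 against 42.0 ± 6.6 CPM in Mta123KO cells and at 43.1 ± 4.8 against 84.3 ± 18 CPM in Mta1_del/del cells. The culture labels of the Control and Mta123KO set go against their markers. Summed over 10 naive pluripotency genes, which ES cells express in 2iL and lose on differentiation, the libraries gave 170 to 257 CPM in Control labelled 2iL and 3790 to 4185 CPM in Control labelled 48h, and the single-mutant libraries, all labelled 2iL, gave 3329 to 5966 CPM. The names of the deposited files also gave the opposite culture. Cultures are therefore named as labelled, and exchanging the labels would reverse the sign of every culture change below and exchange the pair of genotype comparisons.

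How reads were counted bears on single members. In the Control and Mta123KO set, Trim17, which shares 708 bases of exon with Hist3h2a on the same strand, held 0.982 to 1.01 times the Hist3h2a count in each of 16 libraries. Gene models on the opposite strand also filled up with the members. In 17 H2A genes such a model sharing 129 to 144 bases held 0.430 to 0.966 times the count of the member, and Gm20633, which covers Hist2h2aa1 on the opposite strand, held 1.003 to 1.009 times its count. Another overlapping model did not fill up, since Gm11398, which shares 320 bases with Hist1h1e and with Hist1h2be on the same strand, held 0 to 0.00257 times their counts. The counting mode itself was not tested. In the single-mutant libraries the opposite-strand models were not listed, and there Hist3h2a held 7 to 38 counts a library and Trim17 0.235 to 4.93 times as many. Some near-identical copies differed by about counting noise, so their counts cannot be assigned to either copy. The squared difference over the sum of counts averaged 1.48 in the first set for Hist2h2aa1 and Hist2h2aa2 (224.8 and 224.1 CPM), all of whose 50-base stretches occur in other genes. It was 1.13 there for Hist2h3c1 and Hist2h3c2. In the single-mutant libraries it was also low for Hist1h2ao and Hist1h2ap (0.95) and for Hist1h4m and Hist1h4n (1.11), against 132 and 416 in the first set.

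The members together took 0.599 to 1.07% of the counts in the Control and Mta123KO libraries and 0.630 to 1.72% in the single-mutant libraries. Mean levels reached 10 CPM in 60 of 65 members in the first set and 61 in the second, with medians over members of 119 and 135 CPM. Summed by class, the first set gave means of 1047 CPM for H1, 1828 for H2A, 1972 for H2B, 1828 for H3 and 1778 for H4. The second set, counted over a shorter list of genes, gave 1677, 2117, 2338, 2178 and 2227 CPM. Over the genes listed in both sets the first gave 1569 CPM for H1, 2744 for H2A, 2958 for H2B, 2740 for H3 and 2667 for H4 and the second 1670, 2106, 2331, 2175 and 2224 CPM, so the 4 core classes were then lower in the second set. In both sets H1, the class with the fewest genes, had the lowest sum, and the sums of the 4 core classes lay close together. The sums are not corrected for the number or the length of the gene models.

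Within H1, 3 genes, Hist1h1a, Hist1h1d and Hist1h1c, made up 74.1% of the class in the first set, and the same genes 74.5% in the second. Hist1h1a stood at a mean of 380 CPM in the first set and 702 CPM in the second, against 4.12 and 3.25 CPM for the testis linker histone gene Hist1h1t. The core classes were spread over more genes. In H2A, Hist2h2aa1, Hist2h2aa2 and Hist1h2ai led the first set with 31.9% of the class, and Hist1h2ao (204 CPM), Hist1h2ap (203 CPM) and Hist2h2aa2 (203 CPM) the second. In H2B, Hist2h2bb led both sets at 295 and 450 CPM, followed in the first set by Hist1h2bb (212 CPM) and Hist1h2br (199 CPM) and in the second by Hist1h2bf (373 CPM) and Hist1h2bb (258 CPM). In H3, Hist1h3e (266 CPM), Hist1h3c (245 CPM) and Hist1h3f (185 CPM) led the first set and Hist1h3b (264 CPM), Hist1h3e (255 CPM) and Hist1h3g (249.9 CPM) the second. In H4, Hist1h4d led both sets at 386 and 606 CPM, followed by Hist1h4h (173 and 224 CPM) and then by Hist1h4k (155 CPM) in the first set and Hist1h4c (183 CPM) in the second. Per kb of exon in the first set, Hist2h2bb had the highest level of all members at 775 CPM per kb, on a model of 381 bases. All of its 50-base stretches also occur in Gm20628, which covers it on the opposite strand and held 1.19 to 1.31 times its count. Hist1h1a reached 512, Hist1h4d 339, Hist1h3e 319 and Hist1h1d, whose annotated model of 7425 bases runs far past its stem-loop, 29.9 CPM per kb.

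Members varied more between libraries of a group than other genes at 10 CPM or above. The mean coefficient of variation within groups had a median of 16.5% over 60 members against 9.03% over 10228 other genes in the first set, and of 15.7% over 61 members against 11.2% over 9346 other genes in the second. Individual counts in the first set could swing widely. Hist1h4i, chosen after its values were seen, held 27.1, 48.2, 150 and 67.9 CPM in the 4 Mta123KO libraries labelled 2iL. Hist1h2bp, chosen in the same way, had the highest coefficient of variation at 52.9%. The members summed to 10098, 8442, 10547 and 9732 CPM in Control labelled 2iL (libraries 1_1, 1_2, 2_1 and 2_2, the first digit read as the line), to 8497, 7276, 9527 and 8513 CPM in Mta123KO labelled 2iL, to 10579, 6663, 9991 and 7853 CPM in Control labelled 48h and to 6266, 6475, 7427 and 7366 CPM in Mta123KO labelled 48h. The first library of a line lay above the second in 7 of 8 pairs, with ratios of 0.968 to 1.59, and the widest gaps were those of Control labelled 48h. Which of the 2 kits of the study was used for which library is not given in the sources used here, so the part of library preparation in this spread was not tested.

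**Figure D1:**
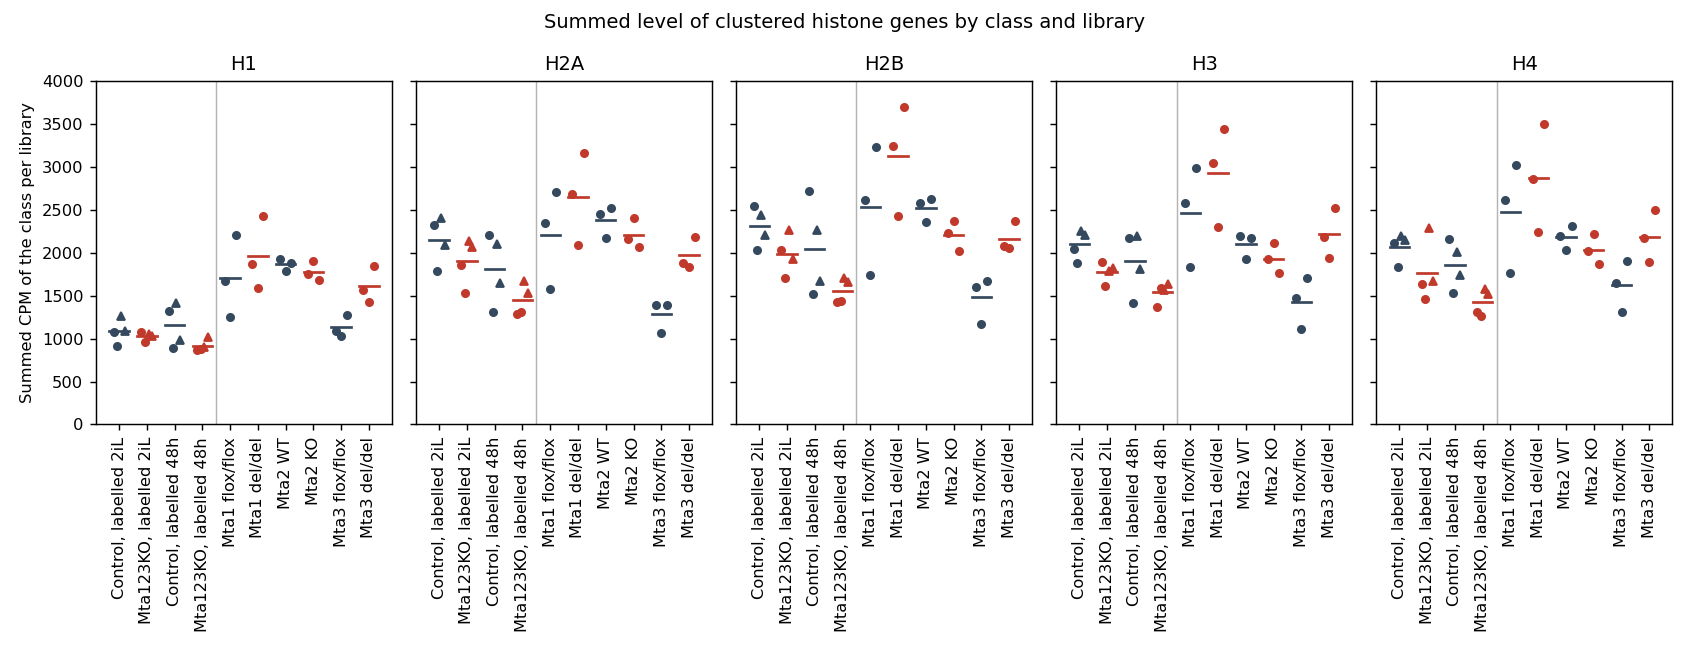
Summed CPM of the clustered histone genes of each class in every library, with groups along the x axis, 1 point per library (triangles, line 2 of the Control and Mta123KO set), bars for group means, and mutants in red. In Mta3 the mutant points of H1, H2A, H2B and H3 lie above those of their parents, and in the other comparisons the points of each class overlap.

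In Control cells, libraries labelled 48h held less RNA of a small number of members, most of all of the Hist3 pair, than libraries labelled 2iL. Hist3h2ba, an H2B gene, stood at 42.0, 30.4, 29.4 and 30.0 CPM in libraries labelled 2iL and at 3.77, 2.02, 2.32 and 1.77 CPM in those labelled 48h. The groups lay far apart, and the log2 fold change was -3.70 (SE 0.22, adjusted p = 1.2e-07, edgeR quasi-likelihood test with Benjamini-Hochberg adjustment, used for every adjusted p here). In bulk RNA, fewer cells that express a gene and less RNA per cell cannot be told apart. Its neighbour Hist3h2a, an H2A gene, fell from 173, 136, 146 and 138 CPM to 58.6, 33.4, 47.6 and 36.3 CPM, with a log2 fold change of -1.74 (SE 0.16, adjusted p = 4.2e-06). Trim17, which shares exon with it and held nearly the same count in each library, went from 148 ± 17 to 44.5 ± 12 CPM. The change therefore cannot be assigned to either of these genes alone.

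The 3 members known from the testis fell too, all from low levels. Hist1h2aa, which encodes a testis H2A, went from 8.59, 6.13, 15.2 and 12.3 CPM to 3.24, 0.867, 4.96 and 3.57 CPM (log2 fold change -1.72, SE 0.41, adjusted p = 0.0038). Hist1h1t, the testis H1, went from 5.43, 4.69, 10.4 and 8.9996 CPM to 1.80, 2.00, 2.73 and 3.15 CPM (-1.60, SE 0.27, adjusted p = 0.00044). Both groups of libraries were higher in line 2 than in line 1 for this gene, and the 2 labels did not overlap. Hist1h2ba, the testis H2B gene that shares its promoter region with Hist1h2aa, fell from 11.2 ± 3.0 to 5.34 ± 1.4 CPM (-1.06, SE 0.22, adjusted p = 0.0019). The 5 testis markers Prm1, Prm2, Tnp1, Tnp2 and Acrv1 summed to 0.538 to 0.909 CPM in Control labelled 2iL and 0.742 to 2.39 CPM in Control labelled 48h. The sixth member past the 2-fold threshold, the H2B gene Hist2h2be, lay near 1 CPM (1.58 ± 0.21 to 0.585 ± 0.17 CPM, log2 fold change -1.41, SE 0.23, adjusted p = 0.00028).

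These 6 members were 9.23% of the 65 tested, against 13.2% of 21240 genes that decreased by the same thresholds. Without the fold threshold 16 members (24.6%) decreased and none increased, where 29% and 29.5% of all genes did. With the replicate number as a block, which pairs libraries of the same line across culture labels, 28 decreased and 2 increased (31.8% and 32.1% of all genes). Changes of the abundant core genes were small. Hist1h4k and Hist1h4h, with the smallest changes that passed, fell by 0.23 and 0.28 on the log2 scale, and the class medians ran from 0.03 for H1 to -0.24 for H2B. The median over all members was -0.16, and it turned to 0.05 when libraries were scaled by their spike-in RNAs, a scaling that moved the median of all genes to 0.18 and left 2 increased (3.08%, 28.2% of genes) and 6 decreased members (9.23%, 17.3% of genes). Without the libraries numbered 2_2, 10 members decreased (15.4%, 26.5% of genes). The summed level of each class overlapped between the labels. Ratios of libraries with the same number ran from 0.789 to 1.05 for all classes together.

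**Figure D2:**
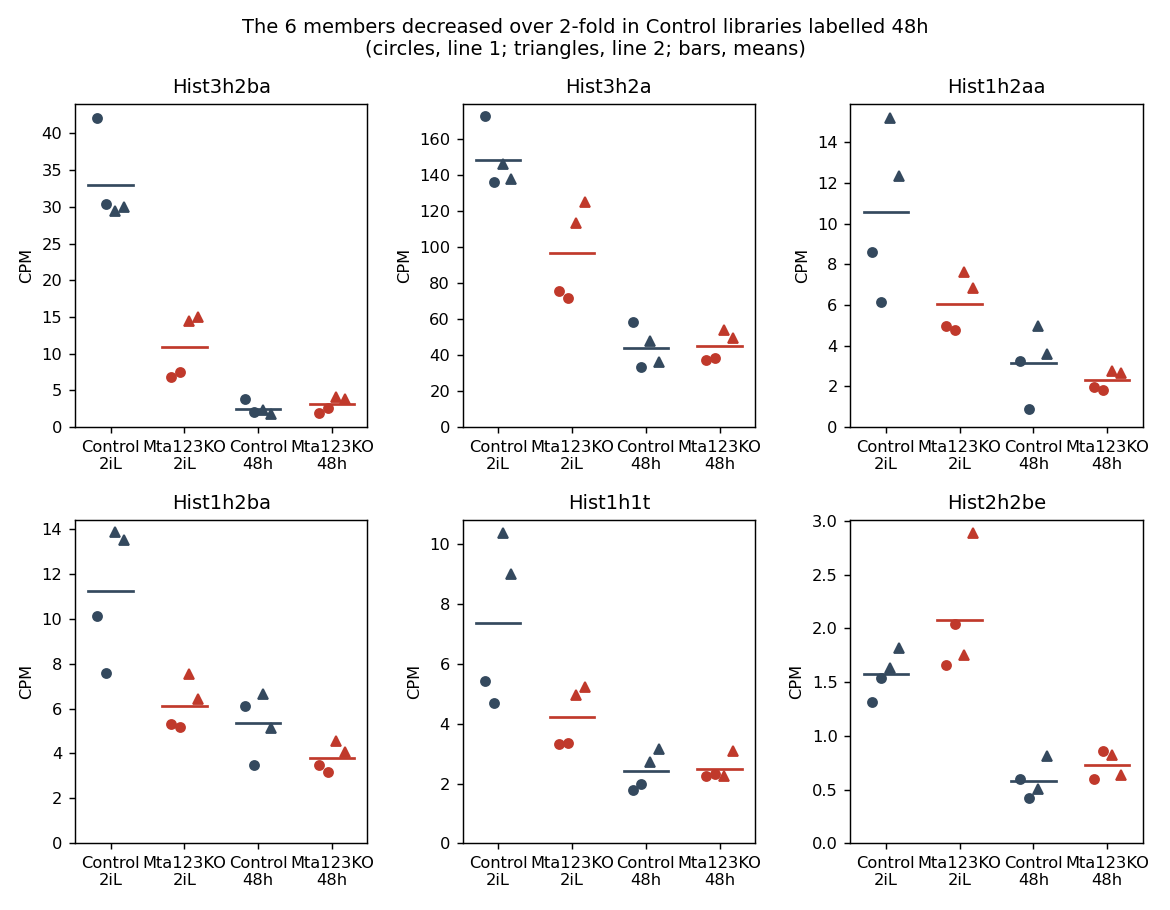
CPM of Hist3h2ba, Hist3h2a, Hist1h2aa, Hist1h2ba, Hist1h1t and Hist2h2be in each Control and Mta123KO library by genotype and culture label (circles, line 1; triangles, line 2; bars, group means). In every panel the Control libraries labelled 48h lie below all 4 Control libraries labelled 2iL.

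In Mta123KO cells, more members stood lower under the 48h label than under 2iL, and most of these changes were under 2-fold. Members decreased in 25 of 65 (38.5%, 10% of 21505 genes) and increased in none (12.4% of genes), and with the replicate block 43 decreased (19.8% of genes) and 2 increased. The 2 groups of libraries did not overlap, with 48h lower, in 25 members (38.5%) and in 12.7% of all genes. The median over members was -0.34, and 60 of 65 lay below zero. With spike-in scaling the median was -0.36 and 12 members decreased (18.5%, 6.12% of genes). By class 10 of 18 H2A, 7 of 16 H2B, 3 of 6 H1, 3 of 12 H3 and 2 of 13 H4 genes decreased, and of the Hist2 cluster 9 of 10 did. In libraries of line 1 alone 47 members decreased (21.6% of all genes) and in those of line 2 alone 46 (20.2%), fits added after seeing the data. With the 2 libraries of each line summed into 1, 2 lines against 2, neither a member nor any other gene passed the threshold. Without the libraries numbered 1_1, 2_1 or 2_2, 11, 15 and 16 members decreased (16.9%, 23.1% and 24.6%, against 5.04%, 6.07% and 5.08% of genes).

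Among abundant members, Hist2h2bb fell from 364, 322, 339 and 315 CPM to 202, 207, 240 and 224 CPM in Mta123KO cells (log2 fold change -0.62, SE 0.08, adjusted p = 0.0011). Every library labelled 48h lay below every library labelled 2iL. Hist1h4d fell from 382 ± 32 to 304 ± 3.6 CPM (-0.33, SE 0.07, adjusted p = 0.011) and Hist2h2aa1 from 239 ± 28 to 180 ± 18 CPM (-0.41, SE 0.11, adjusted p = 0.024). The 4 members past the 2-fold threshold (6.15%, 4.62% of genes) were Hist3h2ba (10.9 ± 4.4 to 3.10 ± 1.0 CPM, log2 fold change -1.82), Hist2h2be (2.08 ± 0.56 to 0.731 ± 0.13 CPM, -1.51), Hist1h2aa (6.05 ± 1.4 to 2.29 ± 0.48 CPM, -1.40) and Hist3h2a (96.6 ± 27 to 44.8 ± 8.3 CPM, -1.11). All 4 were among the 6 of Control cells. The summed level of the members was lower under the 48h label in each of the 4 same-numbered pairs, with ratios of 0.737 to 0.890, although the class sums of the 2 groups overlapped.

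The difference between the genotypes in the culture change was tested as such. Hist3h2ba alone passed, with an interaction of 1.91 on the log2 scale (SE 0.43, adjusted p = 0.0045; 12.5% of 22973 genes passed in this direction, 7.66% also 2-fold, and 10.6% in the other). It fell less in Mta123KO cells, where its level labelled 2iL was already lower. With the replicate block 3 members passed upwards (19.7% of genes) and 7 downwards (17.8%). With the libraries of a line summed none did, and the interaction of Hist3h2ba was 1.87 (SE 0.59, adjusted p = 0.15). Hist1h1t and Hist3h2a had interactions of 0.85 (SE 0.37) and 0.65 (SE 0.28) with an adjusted p of 0.12 each, so a difference between the genotypes in their culture change was not shown.

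Mta123KO cells were compared with Control cells within each culture label. Under both labels members lay mostly below the Control level, by little, and very few rose. In libraries labelled 2iL 17 of 65 members decreased (26.2%, 24.2% of 21651 genes) and 1 increased (1.54%, 27.1% of genes), and a block for the replicate number gave 23 decreased (21.9% of genes), 1 of them past 2-fold (7.21%). In libraries labelled 48h 18 decreased (27.7%, 23.4% of 21079 genes) and 1 increased (1.54%, 26.6%). In this fit the share that decreased was near that of all genes, and the share that increased was below it. The medians over members were -0.20 and -0.31, against 0.01 over all genes in both. With spike-in scaling they were -0.16 and -0.55, where the median of all genes moved to 0.04 and -0.18, and 10 members (15.4%, 17.9% of genes) and 24 members (36.9%, 20.6% of genes) decreased and none increased. Labelled 48h the share that decreased was thus above that of all genes on this scale. With the 2 libraries of each line summed into 1, 1 member decreased and none increased labelled 2iL (6.15% and 9.21% of genes), and 11 decreased (16.9%) and 1 increased labelled 48h (6.35% and 10.7% of genes). Labelled 2iL, 8 members (12.3%) decreased without the libraries numbered 1_1 and 8 without those numbered 2_2 (18.1% and 21.6% of genes). Labelled 48h, 7 (10.8%, 17.2% of genes) decreased and 3 increased without those numbered 1_1, and 8 (12.3%, 19.7% of genes) decreased without those numbered 2_1. The comparisons within a label share no libraries but use the same lines, so they are not independent. In both, 5 members decreased, namely Hist1h2af, Hist1h2bb, Hist1h2bk, Hist1h3a and Hist1h4h. The share of all genes that decreased in both was not counted, so this overlap is not read as a result.

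Hist1h2af, an H2A gene, stood at 136, 91.6, 126 and 96.3 CPM in Control and 50.3, 49.5, 52.4 and 51.7 CPM in Mta123KO libraries labelled 48h, where it was the only member past the 2-fold threshold (log2 fold change -1.13, SE 0.13, adjusted p = 0.00011; 5.93% of genes decreased so). Labelled 2iL it fell from 141 ± 16 to 84.2 ± 9.1 CPM (-0.73, SE 0.10, adjusted p = 0.00044). The groups did not overlap under either label, but 94% of its 50-base stretches occur in other genes, so its reads may come in part from them. Hist3h2ba was the only member past the 2-fold threshold in libraries labelled 2iL, at 6.79, 7.50, 14.5 and 14.98 CPM in Mta123KO against 29.4 to 42.0 CPM in Control (-1.57, SE 0.27, adjusted p = 0.0013; 7.43% of genes decreased so). Its Mta123KO values went with the line, with means of 7.15 CPM in line 1 and 14.7 CPM in line 2, both below Control. With the libraries of each line summed the log2 fold change was -1.59 (SE 0.37) and the adjusted p 0.053, so the call did not hold with the line as the sample. Labelled 48h it did not pass (2.47 ± 0.90 and 3.10 ± 1.0 CPM, 0.33, SE 0.30, adjusted p = 0.39).

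Hist1h2ba (11.2 ± 3.0 to 6.11 ± 1.1 CPM, log2 fold change -0.86, adjusted p = 0.0078), Hist1h1t (-0.79, adjusted p = 0.041) and Hist1h2aa (-0.79, adjusted p = 0.042) decreased in Mta123KO libraries labelled 2iL, and in those labelled 48h their adjusted p were 0.086, 0.87 and 0.39. Only 1 of the 65 members decreased labelled 2iL with the libraries of each line summed, so no more than 1 of these 3 calls held with the line as the sample. The 5 testis markers summed to 0.361 to 0.947 CPM in Mta123KO labelled 2iL, all 5 of them under 1 CPM. Hist1h1a, the most abundant linker gene, fell from 475 ± 95 to 291 ± 36 CPM labelled 48h (-0.70, SE 0.14, adjusted p = 0.0034). The linker gene Hist1h1e was the 1 member that increased, under both labels. Its Control libraries held 100.01, 96.9, 129 and 110 CPM labelled 2iL and the Mta123KO libraries 160, 139, 133 and 132 CPM (0.39, SE 0.10, adjusted p = 0.012). Labelled 48h the mean rose from 73.8 ± 10 to 102 ± 10 CPM (0.48, SE 0.11, adjusted p = 0.007). No Mta123KO library overlapped with Control under either label, as held for 25% of all genes in this direction labelled 2iL and 24.6% labelled 48h. With the libraries of each line summed no member increased labelled 2iL, so this increase did not hold there, and 1 member increased labelled 48h. With spike-in scaling neither increase passed. Hist1h1e shares 496 bases of exon with the long model of Hist1h2be, which decreased labelled 2iL.

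The summed level of all members was lower in Mta123KO than in the same-numbered Control library in 4 of 4 pairs under both labels, with ratios of 0.842 to 0.903 labelled 2iL and 0.592 to 0.972 labelled 48h. Across genotypes a shared number marks no pairing, and the sums of every class overlapped between the groups. By class the ratio of means ran from 0.848 for H3 to 0.953 for H1 labelled 2iL and from 0.762 for H2B to 0.810 for H3 labelled 48h. Members with and without a stem-loop in their model had medians of -0.20 and -0.17 labelled 2iL and -0.27 and -0.43 labelled 48h. Those with an octamer had medians of -0.26 and -0.44 against -0.15 and -0.30 for the others.

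**Figure D3:**
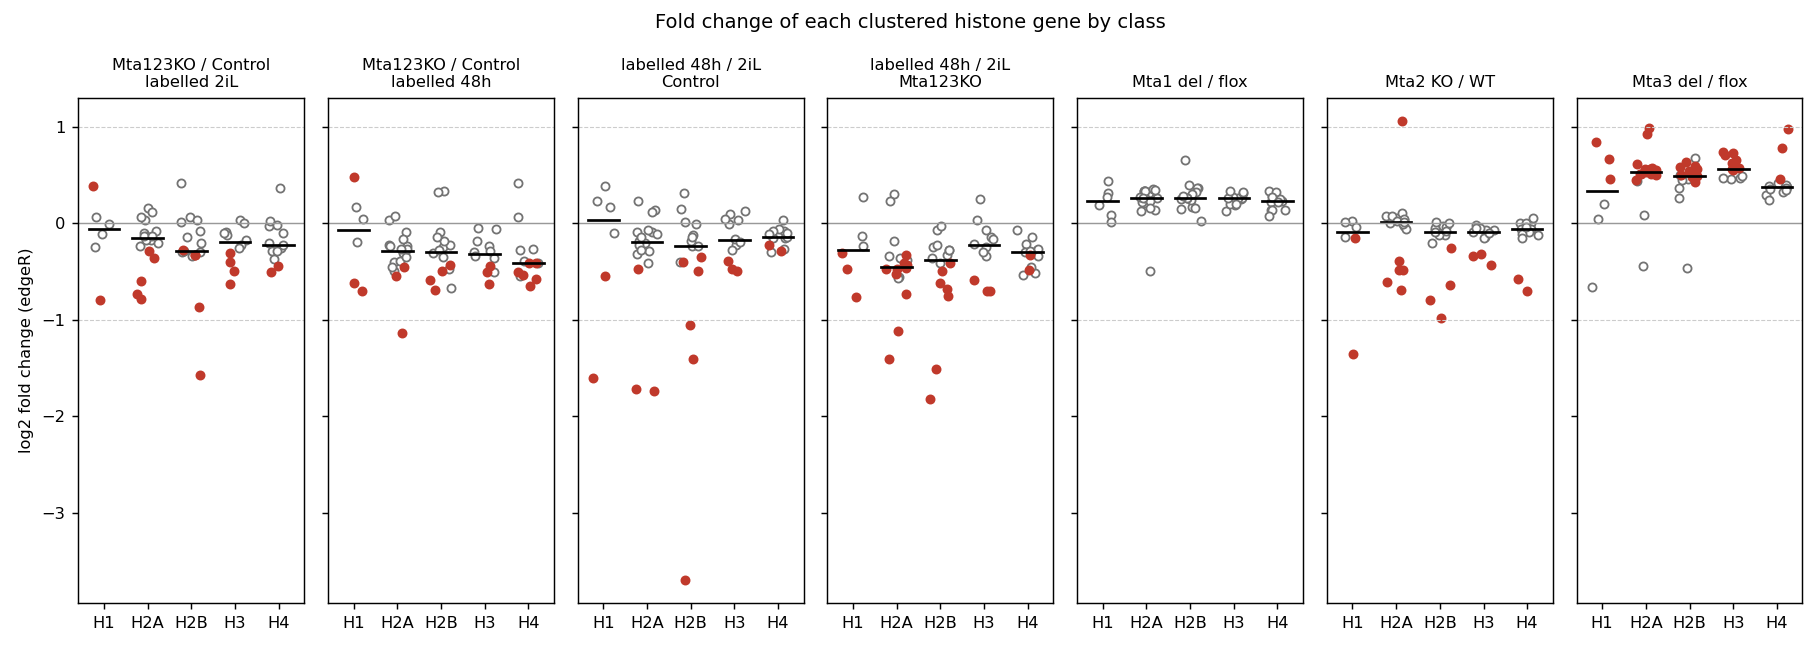
Log2 fold change of each of the 65 members by histone class in the 7 comparisons of 2 groups, with filled red points where the adjusted p passed 0.05, open points elsewhere, bars for class medians and dashed lines at 1 and -1. Class medians lie at or below 0.03 in the Control and Mta123KO comparisons and above zero in every class in Mta1 and Mta3; with spike-in scaling the median over all members in Control between culture labels was 0.05.

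Members stood a little higher in Mta1_del/del than in Mta1_flox/flox cells and none passed the test. Of 65 members 64 had a log2 fold change above zero, with a median of 0.26 and values from -0.50 to 0.66, yet 0 passed at the adjusted p, as of all 14561 genes (0% increased and 0% decreased in edgeR, 0 members also in DESeq2), and 0 members had an unadjusted p under 0.05. Mta1 itself, at -0.97 (SE 0.18), had an adjusted p of 1. The members summed to 13704, 10658 and 16232 CPM in the mutant and 11821, 8173 and 14163 CPM in the parent, whose ranges overlap. In 0 of 65 members did the libraries separate either way (1.19% of all genes higher, 1.22% lower). The libraries numbered 2 were lowest in both genotypes, and within numbers the ratios were 1.15 to 1.30. With this number as a block still no gene passed. Hist1h1a held 732, 644 and 1001 CPM in the mutant against 699, 423 and 963 CPM in the parent.

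In Mta2_KO cells, every gene of the Hist2 cluster was lower than in Mta2_WT cells, while 4 of 52 Hist1 genes decreased. The count in Hist1 depended on the libraries numbered 2, without which 22 of 52 Hist1 genes (median -0.16) and 10 of 10 Hist2 genes (median -0.62) decreased. Without those numbered 1 or 3 it was 2 of 52 each, with 9 and 10 of the Hist2 genes. The 10 Hist2 genes had log2 fold changes of -0.98 to -0.31. Hist2h2bb, the leading H2B gene, held 349, 399 and 358 CPM in the mutant and 587, 542 and 585 CPM in the wild type (log2 fold change -0.64, SE 0.07, adjusted p = 4.3e-05), and the groups lay well apart. Hist2h2aa1 fell from 239 ± 19 to 172 ± 13 CPM (-0.48, SE 0.07, adjusted p = 0.00045). The cluster lies on chromosome 3, and the 726 other genes tested there had a median log2 fold change of -0.50 in this comparison, against -0.04, 0.03 and -0.01 for the other genes of chromosomes 13, 11 and 6. The median of the 10 Hist2 genes was -0.48, close to that of the other genes of their chromosome. In Mta123KO against Control the other genes of chromosome 3 had medians of -0.05 labelled 2iL and -0.00 labelled 48h.

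The 4 Hist1 genes that decreased in Mta2_KO cells were Hist1h1e, Hist1h1t, Hist1h2aa and Hist1h2be. Hist1h1t was the 1 member past the 2-fold threshold (6.04% of 15602 genes decreased so), from 4.69, 4.88 and 5.48 CPM to 1.65, 2.02 and 2.25 CPM (log2 fold change -1.36, SE 0.15, adjusted p = 6.6e-05). Hist1h2aa fell from 14.4 ± 0.62 to 9.49 ± 0.94 CPM (-0.60, SE 0.09, adjusted p = 0.0006) while Hist1h2ba stayed at 58.6 ± 2.8 and 58.8 ± 4.4 CPM. Hist3h2ba (2.54 ± 0.40 to 1.47 ± 0.14 CPM, -0.80, adjusted p = 0.0056) and Hist4h4, the lone H4 gene of chromosome 6 (-0.70), also decreased. Hist3h2a, under 1 CPM in every library, was the member that increased (0.430 ± 0.024 to 0.909 ± 0.13 CPM, 1.06, adjusted p = 0.011), and it did not pass without any 1 of the replicates. In all 16 members (24.6%, 24.3% of genes) decreased. Leaving out the libraries numbered 2 gave 34 decreased members (52.3%, 20.9% of genes) and a median of -0.19, and leaving out those numbered 3 gave 14 (21.5%, 22.2% of genes) and a median of 0.02, where the median of all 3 was -0.07. Fibroblast or feeder markers summed over 8 genes to 18.8 to 19.8 CPM in the wild type and 10.7 to 11.9 CPM in the mutant, and their part in these results was not tested. The testis markers gave 0.520 to 1.34 CPM and 1.17 to 1.26 CPM.

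In Mta3_del/del cells, members of every class were higher than in Mta3_flox/flox cells. Increased members numbered 38 of 65 (58.5%, 8.32% of 15522 genes), none decreased (7.84%) and none passed the 2-fold threshold (0.812% of genes increased so), with a median of 0.50 and 62 of 65 above zero. In 51 members (78.5%, 23.7% of all genes) each mutant library lay above each parental library. The members summed to 9874, 9147 and 11428 CPM in the mutant and 7199, 5680 and 7955 CPM in the parent, which do not overlap, and the sums of H1, H2A, H2B and H3 did not overlap either. The ratios of class means were 1.43 for H1, 1.53 for H2A, 1.46 for H2B, 1.55 for H3 and 1.35 for H4. Without the libraries numbered 1, or without those numbered 3, no member passed, and no more than 0.0062% of all genes increased, whereas without those numbered 2 36 members did (55.4%, 12.5% of genes).

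Hist1h1a rose from 461, 468 and 557 CPM in the Mta3_flox/flox libraries to 705, 602 and 824 CPM in the Mta3_del/del libraries (log2 fold change 0.46, SE 0.13, adjusted p = 0.045). Hist2h2bb rose from 296, 299 and 317 CPM to 429, 487 and 515 CPM (0.59, SE 0.10, adjusted p = 0.019), and neither gene overlapped between the groups. The highest value was that of Hist2h2ac at 0.99 (52.0 to 107 CPM, adjusted p = 0.013), chosen after its values were seen. Hist1h1t, at 4.70 ± 1.5 and 3.10 ± 0.20 CPM, had a log2 fold change of -0.66 (adjusted p = 0.11). Markers of fibroblasts or feeder cells moved in the same comparison. Summed over 8 such genes, of which 2 decreased and none was at 0 throughout, they gave 18.5 to 65.3 CPM in the parent and 10.2 to 13.3 CPM in the mutant, and their part in the result was not tested.

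**Figure D4:**
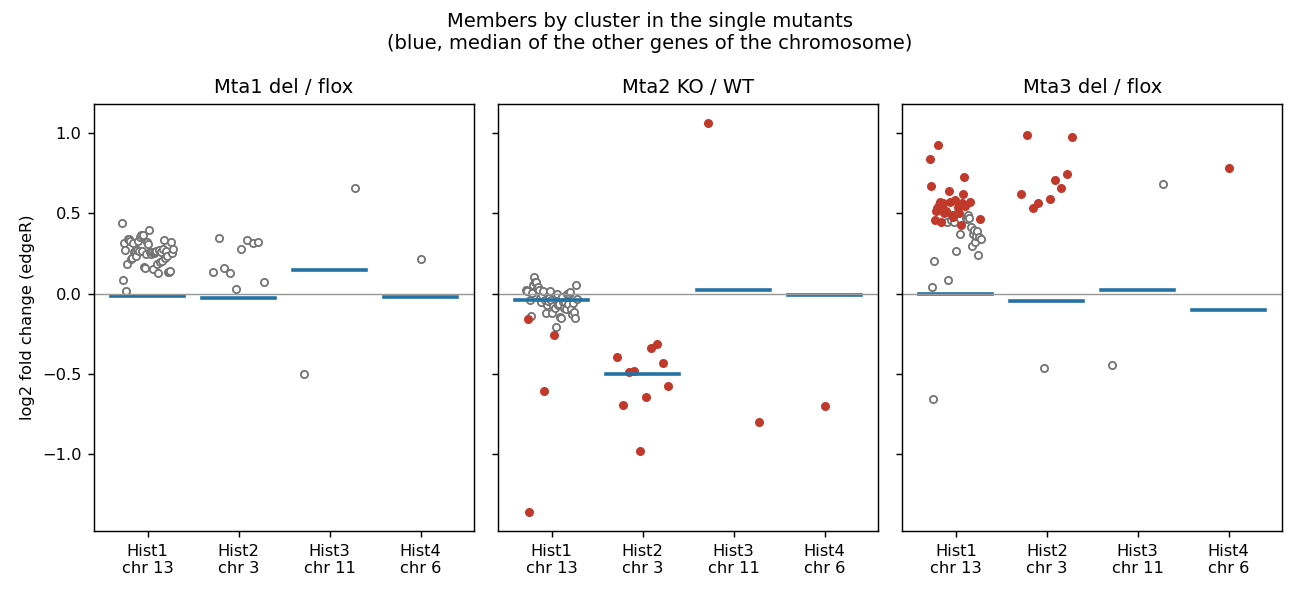
Log2 fold change of the members in the 3 single mutants by gene cluster, with filled red points where the adjusted p passed 0.05 and a blue line for the median of the other genes of the same chromosome. In Mta2_KO the Hist2 genes lie around the blue line of chromosome 3 at -0.50, and in Mta3_del/del 62 of 65 members lie above zero.

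Genes that act with the clustered histones were set beside them. Their counts are to be read against the shares of all genes that increased and decreased. These were 27.1% and 24.2% in Mta123KO labelled 2iL and 26.6% and 23.4% labelled 48h. Between culture labels they were 29.5% and 29% in Control and 12.4% and 10% in Mta123KO. In Mta2_KO they were 23.5% and 24.3%, and in Mta3_del/del 8.32% and 7.84%. Of 20 genes of S phase and DNA replication, 15 decreased and 1, Mki67, increased in Mta123KO libraries labelled 2iL (median -0.49), and 17 decreased and none increased labelled 48h (median -0.67). With spike-in scaling 13 and 16 of the 20 decreased and none increased (medians -0.47 and -0.86). On this scale 17.9% and 20.6% of all genes decreased and 23.1% and 16.3% increased. Past the 2-fold threshold labelled 48h were the licensing factor Cdt1 (122 ± 19 to 59.8 ± 1.9 CPM, -1.02), the regulator E2f1 (21.4 ± 1.7 to 10.2 ± 2.1 CPM, -1.06) and the ribonucleotide reductase subunit Rrm2 (281 ± 21 to 124 ± 7.6 CPM, -1.17). Between culture labels in Control cells 5 of the 20 increased and 3 decreased, and in Mta123KO cells 4 decreased and none increased. In Mta3_del/del cells 2 of the 20 increased and none decreased.

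Of 18 genes for histone message processing, 4 increased and 6 decreased in Mta123KO libraries labelled 2iL, and 4 increased and 5 decreased labelled 48h. Slbp, which binds the stem-loop, fell from 83.0 ± 3.0 to 55.9 ± 3.3 CPM (-0.55, SE 0.06, adjusted p = 0.00014) and from 93.6 ± 5.4 to 64.5 ± 4.4 CPM (-0.53, SE 0.07, adjusted p = 0.00035). The activator of histone transcription Npat was at 76.6 ± 3.2 and 88.1 ± 5.3 CPM labelled 2iL (0.22, adjusted p = 0.018). In Mta3_del/del cells 5 of the 18 increased, in Mta2_KO cells 3 increased and 5 decreased, and in Mta1_del/del cells none passed. Between culture labels 6 increased and 5 decreased in Control cells and 1 increased in Mta123KO cells. With spike-in scaling 1 increased and 2 decreased labelled 2iL and 3 decreased labelled 48h.

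Among 9 histone chaperones and the acetyltransferase of new histones, 3 increased and 4 decreased labelled 2iL in Mta123KO. The chromatin assembly subunit Chaf1b fell from 86.7 ± 8.4 to 40.2 ± 10.5 CPM (-1.09, adjusted p = 0.00079) and the H1 and H3-H4 chaperone Nasp from 558 ± 20 to 312 ± 57 CPM (-0.82, adjusted p = 0.00049), whereas Hat1 rose (0.77, adjusted p = 0.0057). Labelled 48h 1 of the 9 increased and 4 decreased.

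Of 11 histone genes outside the clusters, which are not tied to replication, 3 increased and 3 decreased in Mta123KO labelled 2iL and 2 increased and 5 decreased labelled 48h. H2afy, which encodes macroH2A1, rose from 32.8 ± 5.2 to 78.0 ± 4.9 CPM labelled 2iL (1.26, adjusted p = 4.1e-05), and in Control it rose under the 48h label to 128 ± 7.0 CPM (1.98, adjusted p = 6.3e-08), with an interaction of -1.22 (adjusted p = 8.8e-06). H2afy2, which encodes macroH2A2, fell in Mta123KO under both labels (-1.19 and -1.07). The replacement H3 gene H3f3b rose under both (0.52 and 0.60). With spike-in scaling 3 of the 11 increased and 2 decreased labelled 2iL, and 4 decreased and none increased labelled 48h. In Mta2_KO cells 3 of the 11 increased and 7 decreased, with the linker gene H1fx past the 2-fold threshold (2.65 ± 0.19 to 1.31 ± 0.28 CPM, -1.02), and in Mta3_del/del cells 2 increased.

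**Figure D5:**
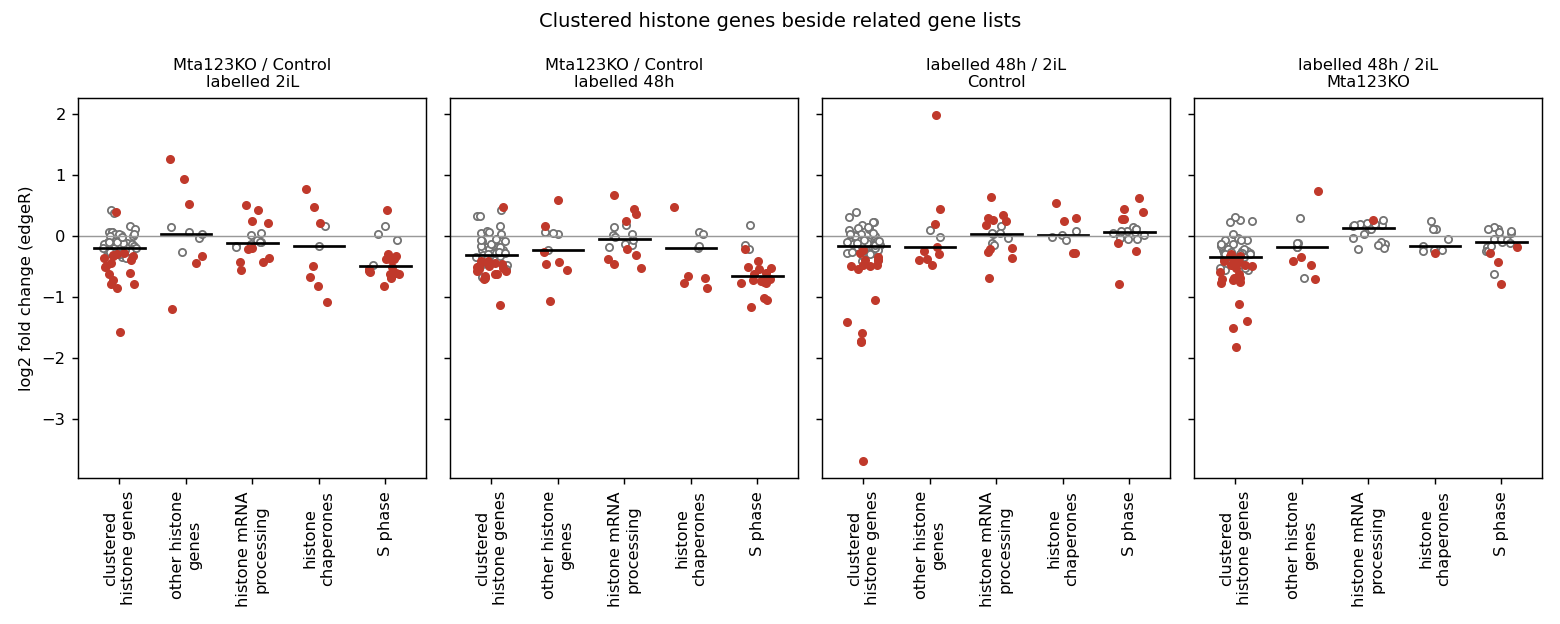
Log2 fold change of the members and of 4 related gene lists in the comparisons of the Control and Mta123KO set, filled red where the adjusted p passed 0.05, with bars for medians. The S phase list lies below the members in both comparisons of Mta123KO with Control (medians -0.49 and -0.67, members -0.20 and -0.31), on the TMM scale.

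RNAs without a poly(A) tail were followed as a sign of library preparation. All 13 of a fixed list were counted in the Control and Mta123KO libraries and together gave 119857 to 180378 CPM, while they were not listed in the single-mutant files. They were not flat. Between Control and Mta123KO 1 increased and 6 decreased labelled 2iL (27.1% and 24.2% of all genes). Labelled 48h 2 increased and 1 decreased (26.6% and 23.4% of all genes). Between culture labels 5 decreased in Control (29% of all genes) and none passed in Mta123KO. The telomerase RNA Terc fell from 15.4 ± 1.8 to 7.40 ± 1.1 CPM in Mta123KO labelled 48h (-1.05, adjusted p = 0.00022), and Rny1 from 3.10 ± 0.64 to 1.24 ± 0.32 CPM between labels in Control (-1.31, adjusted p = 0.00034).

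Levels of members could be set side by side between the 2 sets only over the genes listed in both. On that scale the ratio of the single-mutant mean to the Control and Mta123KO mean had a median of 0.813 over 65 members. It ran from 0.00649 for Hist3h2a to 5.07 for Hist1h2ba, and the next highest were Hist1h2bf at 3.04 and Hist2h2ab at 2.30. On the CPM scale of each set, Hist1h2ba stood at 3.17 to 13.8 CPM in the first set and at 30.8 to 70.1 CPM in the second, without overlap, although its neighbour Hist1h2aa had a ratio of 1.62. Members that share exon bases with another listed gene had a median ratio of 0.815 (24 members) and those that share none 0.811 (41 members). The mean of the first set pools libraries of both culture labels and of Mta123KO cells, whereas the second set is all labelled 2iL. Between labels in Control, Hist3h2a changed by -1.74 and Hist1h2ba by -1.06 on the log2 scale. The sets thus differ in culture, genotype, read type, gene list, counting and cell lines. The kit is not given per library, so these cannot be told apart.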

How the data were processed

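Gene counts of RNA-seq libraries of mouse ES cells were used as deposited. The authors trimmed reads with Trim Galore, aligned them with TopHat2 to GRCm38 (mm10) and counted them per gene with featureCounts, so the deposited values are raw counts per library. Whether multi-mapping reads or strand were used is not given in the sources used here. The Control and Mta123KO libraries were read paired-end with 92 spike-in RNAs, and the single-mutant libraries single-end. The study names 2 kits, NEXTflex Rapid Directional and SMARTer Stranded Total RNA-Seq v2 Pico, with no kit per library.

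Symbols came from GENCODE vM21 (48349 of 48709 and 21852 of 22018 IDs matched). Levels are counts per 1000000 (CPM) of TMM-scaled library totals. Comparisons used edgeR 4.0.16 quasi-likelihood tests (R 4.3.3) on the compared groups, after filterByExpr, with Benjamini-Hochberg adjustment over all genes tested. Genes with adjusted p under 0.05 are called increased or decreased, and the 2-fold threshold is stated where applied. DESeq2 1.42.0, no filter, spike-in scaling, a replicate block, summed lines and leaving out each replicate number were alternatives, and the fits within a line were added after seeing the data. All 65 listed members passed the filter in every comparison. The test was checked on simulated libraries drawn independently at a fixed dispersion, without lines or blocks. That check therefore does not cover the spread between lines.

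Replicate numbers were read as pairs where every same-numbered pair of libraries deviated together with a correlation over 0.1. This held between culture labels in Control (0.36 to 0.44) and Mta123KO (0.62 to 0.67) and in Mta1 (0.44 to 0.74), by the data and not by the labels. Libraries that correlated best with their own number were 4 of 4, 3 of 4 and 3 of 3. In the first set a shared number also means the same line. The correlation there does not show which of the 2 libraries of a line belong together, and the block rests on that reading. Named genes are the 3 highest members of each class in each set, up to 3 members called each way in a comparison, the testis members and the members of related lists past both thresholds. Other genes of the related lists, among them Slbp, Npat, Nasp, Hat1 and H3f3b, were named outside this rule. The genes and lists were chosen with earlier results of these data known.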

Additional observations from a re-analysis of the deposited data

Results flagged for a closer look

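Among 132 values tested within groups of 4 libraries, 8 had 1 library far from the other 3, and chance gives about 1 in 20. In Control labelled 2iL, Hist1h1c was highest in library 2_1 at 177 CPM and Hist3h2ba in library 1_1 at 42.0 CPM. In Mta123KO labelled 2iL, Hist1h3b was highest in library 1_1 at 176 CPM. In Mta123KO labelled 48h, library 2_2 was highest for the H1 sum (1022 CPM), Hist1h1c (225 CPM) and Hist1h1t (3.10 CPM). In the same group Hist1h1d was lowest in library 2_1 at 182 CPM and Hist1h2br in library 1_1 at 139 CPM. The culture change of Hist3h2ba differed between Mta123KO and Control cells, with an interaction of 1.91 on the log2 scale (adjusted p = 0.0045, edgeR), which did not pass with the libraries of each line summed (adjusted p = 0.15).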

How the results depend on the processing

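Depth was ample for most members. Groups held 3 or 4 libraries, those of the first set from 2 lines, many members share sequence, and histone counts spread between libraries. The part of each in the precision was not tested. Each member called in the main fit was refitted under each alternative. Of these refits, counted per member, comparison and alternative, 885 kept direction and significance, 312 kept the direction but no longer passed and none reversed. They covered only called members and used the same or overlapping libraries. A reversal was thus unlikely from the start, and its absence is not read as a result. Without a fold threshold, 1 member increased and 17 decreased in Mta123KO labelled 2iL, 1 and 18 labelled 48h, 0 and 16 between labels in Control, 0 and 25 in Mta123KO, 1 and 16 in Mta2_KO, and 38 and 0 in Mta3_del/del. With spike-in scaling these counts were 0 and 10, 0 and 24, 2 and 6, and 0 and 12, with 5 past the 2-fold threshold in Control. DESeq2 gave 1 and 18 between labels in Control (29.3% and 29.5% of all genes) and 1 and 29 in Mta123KO (15.1% and 13.8%). It gave 1 and 17 in Mta2_KO (22.1% and 23%) and 46 increased in Mta3_del/del (12.2%). With no filter the counts were 1 and 18 between labels in Control (18.8% and 19% of all genes) and 0 and 23 in Mta123KO (6.22% and 5.28%). They were 1 and 17 in Mta2_KO (15.9% and 18.5%) and 44 increased in Mta3_del/del (7.25%), 2 of the last past 2-fold.

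With the replicate block 28 decreased and 2 increased between labels in Control, 43 and 2 in Mta123KO, and the interaction passed in 3 upwards and 7 downwards. The block, where numbers mark no pairing, gave 1 increased and 23 decreased in Mta123KO labelled 2iL (24.2% and 21.9% of all genes). It gave 1 and 16 labelled 48h (24.6% and 21.4%), 1 and 16 in Mta2_KO (21.7% and 22.3%) and 48 increased in Mta3_del/del (8.04%). Same-numbered correlations there were -0.26 to -0.0074, -0.11 to 0.064, -0.25 to 0.44 and -0.16 to 0.32, and 0 of 4, 1 of 4, 2 of 3 and 2 of 3 libraries correlated best with their own number. With lines summed the counts were 0 and 1 labelled 2iL (9.21% and 6.15% of all genes), with 0 past 2-fold. Labelled 48h they were 1 and 11 (10.7% and 6.35%), and between labels in Control 1 and 20 (22.5% and 22.7%). In Mta123KO they were 0 and 0 (0% and 0%), and for the interaction 0 and 0 (1.57% and 1.18%). Within line 1 they were 1 and 31 labelled 2iL (31.7% and 30.7% of all genes) and 1 and 26 labelled 48h (30.7% and 28.1%). Between labels they were 0 and 7 in Control (25.4% and 24.7%) and 1 and 47 in Mta123KO (24% and 21.6%). Within line 2 they were 5 and 27 labelled 2iL (28.5% and 26.5%) and 3 and 19 labelled 48h (25.6% and 22.6%). Between labels line 2 gave 0 and 22 in Control (23.8% and 24.2%) and 2 and 46 in Mta123KO (21.1% and 20.2%). Past 2-fold labelled 2iL, 2 decreased in line 1 (11.1%), and 1 increased (12.3%) and 0 decreased (8.91%) in line 2. Labelled 48h 2 decreased past 2-fold in each line (8.19% and 6.58%).

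Leaving out each replicate number changed the counts, given here with the range of the share of all genes in brackets. In Mta123KO labelled 2iL 0 to 1 increased (21.1% to 23.8%) and 8 to 17 decreased (18.1% to 21.6%). Labelled 48h these were 1 to 3 (20.5% to 23.4%) and 7 to 25 (17.2% to 19.7%), with 1 to 2 past 2-fold. Between labels in Control they were 0 to 1 (25.7% to 26.6%) and 10 to 19 (25.4% to 26.5%). Past 2-fold these were 5 to 6. Between labels in Mta123KO they were 0 (6.82% to 8.35%) and 11 to 19 (4.84% to 6.07%). In Mta2_KO they were 0 (15.8% to 20.7%) and 13 to 34 (16.6% to 22.2%), past 2-fold 0 and 1 to 2. In Mta3_del/del 0 to 36 increased (0% to 12.5%), 0 to 1 past 2-fold. With the total over genes listed in both sets as denominator, the class sums of the Control and Mta123KO set were 1569 CPM for H1, 2744 for H2A, 2958 for H2B, 2740 for H3 and 2667 for H4. The cause of these differences was not tested.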
